A study of Mus musculus with 1152 samples.

Results

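The type I interferon response module is a set of 37 genes that cells switch on when they sense type I interferon. They were taken from the 48587 genes of the count table by a list of symbols, and each of the 37 was present. All 37 passed the filter on low counts that left 17358 genes for testing. Each gene was followed in single microglia, the resident macrophages of the brain, each sorted into its own well. Smart-seq2 libraries, which hold reads along whole transcripts and no molecule tags, gave a read count per gene, so intervals and bounds on reads cover counting error only.

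The microglia were taken from 3 regions (cortex, hippocampus, cerebellum) of 2 genotypes, wild-type (WT) and 5xFAD, both labelled with the strain C57BL/6J. 5xFAD mice carry transgenes driven by the neuronal Thy1 promoter, mutant human APP among them, and form amyloid plaques. Nothing on age, sex or treatment is given in the sources used here, and the sort used antibodies to CD11b, CD45, Ly6C, Ly6G and CD206. There were 4 mice each of WT cortex, WT hippocampus, WT cerebellum and 5xFAD cortex, and 3 mice each of 5xFAD hippocampus and 5xFAD cerebellum. By the series' design text, the regions share their mice. After filtering, 1041 cells were kept of 1140 wells labelled as cells. Adding up the kept cells of 1 mouse in 1 region made 22 sums, each with 35 to 72 cells and 5696201 to 26669220 reads.

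The 6 groups lay on 3 plates. Plate P209 held WT cortex and WT hippocampus, plate P210 held WT cerebellum and 5xFAD cortex, and plate P211 held 5xFAD hippocampus and 5xFAD cerebellum. In every region, the comparison of 5xFAD with WT is therefore also a comparison between plates, and these cannot be told apart. All 11 microglia markers had reads in every group, with a summed level of 55666 to 85269 CPM (reads for every 1000000 gene reads of a sum). Markers of border macrophages, the macrophages of the brain's linings, reached 832 CPM in WT cerebellum and 679 in 5xFAD cerebellum. In single mice of WT cortex and WT hippocampus they reached 335 and 333, and the highest sums in 5xFAD cortex and 5xFAD hippocampus were 40.3 and 7.18. Of the 8 markers, 0 were at 0 reads in WT cerebellum, Lyve1 was at 0 in 5xFAD cerebellum and WT hippocampus, Lyve1 and Cd163 in 5xFAD cortex, Cd163 and Cbr2 in 5xFAD hippocampus and Cbr2 in WT cortex. Monocyte markers summed to at most 92.7 CPM in cortex and hippocampus, and reached 412 in 1 mouse of WT cerebellum and 2208 in 1 of 5xFAD cerebellum. Neutrophil markers summed to 369 to 855 CPM outside 5xFAD cerebellum, where they ranged from 474 to 15364. Of the 8 neutrophil markers, 2 had reads in WT hippocampus, 3 in WT cerebellum and 5 in WT cortex. In 5xFAD mice 4 had reads in cortex, 7 in hippocampus and 8 in cerebellum. B cell markers summed to 565 to 1090 CPM over the groups. A summed level can rest on few genes of a list and does not count cells of that type. Wells with at least 3 B cell markers at 10 or more reads each were found only in 3 groups. These were WT hippocampus, 5xFAD hippocampus and 5xFAD cerebellum, with 1 well each. Wells that met this rule for neutrophil markers were found only in 5xFAD cerebellum, where 5 met it for monocyte and neutrophil markers.

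Type I interferons bind a receptor of Ifnar1 and Ifnar2, whose kinases Jak1 and Tyk2 phosphorylate Stat2. Stat2 and Irf9 are subunits of ISGF3, which binds the interferon-stimulated response element (ISRE) in promoters. The genes it turns on encode proteins that block steps of viral replication, sense nucleic acids or modify other proteins, among them Irf7, which amplifies interferon production. In the brain, microglia with high levels of such genes have been described in aging and around amyloid plaques.

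Promoter sequences are shown because the ISRE is the element through which ISGF3 acts on these genes. RefSeq promoter windows (build GRCm38.p6, 250 bases before to 50 after a start) were found for 28 of the 37 genes, and not for Oas2, Mx1, Ifi27l2a, Rtp4, Zbp1, Ifi204, Usp18, Parp9 and Parp14. On either strand, GAAA followed by any 2 bases and GAAA was searched as the ISRE core, and TTCNNNGAA as the gamma-activated site (GAS), an element of the response to interferon gamma. The stretches below come from 6 genes that represent the Ifit, Oas, ubiquitin-like, membrane-tethering and schlafen members, each read 5′ to 3′ on the gene's strand. Capitals mark 1 ISRE match, the one nearest the start of that promoter. A match on the opposite strand reads TTTC, 2 bases and TTTC.
Ifit1: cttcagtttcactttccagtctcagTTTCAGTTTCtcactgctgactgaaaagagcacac
Isg15: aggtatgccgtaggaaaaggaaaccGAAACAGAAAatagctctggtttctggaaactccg
Oas1a: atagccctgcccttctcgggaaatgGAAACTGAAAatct
Bst2: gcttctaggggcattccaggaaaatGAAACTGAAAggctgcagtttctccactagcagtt
Slfn5: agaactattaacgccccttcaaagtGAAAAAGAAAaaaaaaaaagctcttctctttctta
Slfn8: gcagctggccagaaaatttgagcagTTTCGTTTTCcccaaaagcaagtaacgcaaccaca

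The Ifit1 stretch is chr19:34640779-34640838 on the plus strand, with the marked match at bases -85 to -76 from the start. Isg15 (chr4:156200850-156200909, minus strand) held 3 overlapping matches, and Oas1a (chr5:120907526-120907564, minus strand) held 2, of which the marked one ends 5 bases before the start. The Bst2 stretch is chr8:71537562-71537621 (minus strand). Slfn5 (chr11:82951922-82951981, plus strand) and Slfn8 (chr11:83020824-83020883, minus strand) lie in the schlafen cluster on chromosome 11. The ISRE letters were present in 14 of the 28 genes (50%), against 3.99% of all 27025 genes with a window in the table. The 14 were Stat2, Ifit1, Ifit3, Oas1a, Oas3, Rsad2, Bst2, Ifitm3, Gbp2, Ifih1, Isg15, Trim30a, Slfn5 and Slfn8. The GAS letters were present in 5 of 28 (17.9%), in Ifit2, Oas1a, Bst2, Ifitm3 and Ifi35, against 9.55% of all genes. In Bst2 and Ifitm3 a GAS match overlapped an ISRE match. A match describes letters in the window only.

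**Figure D1:**
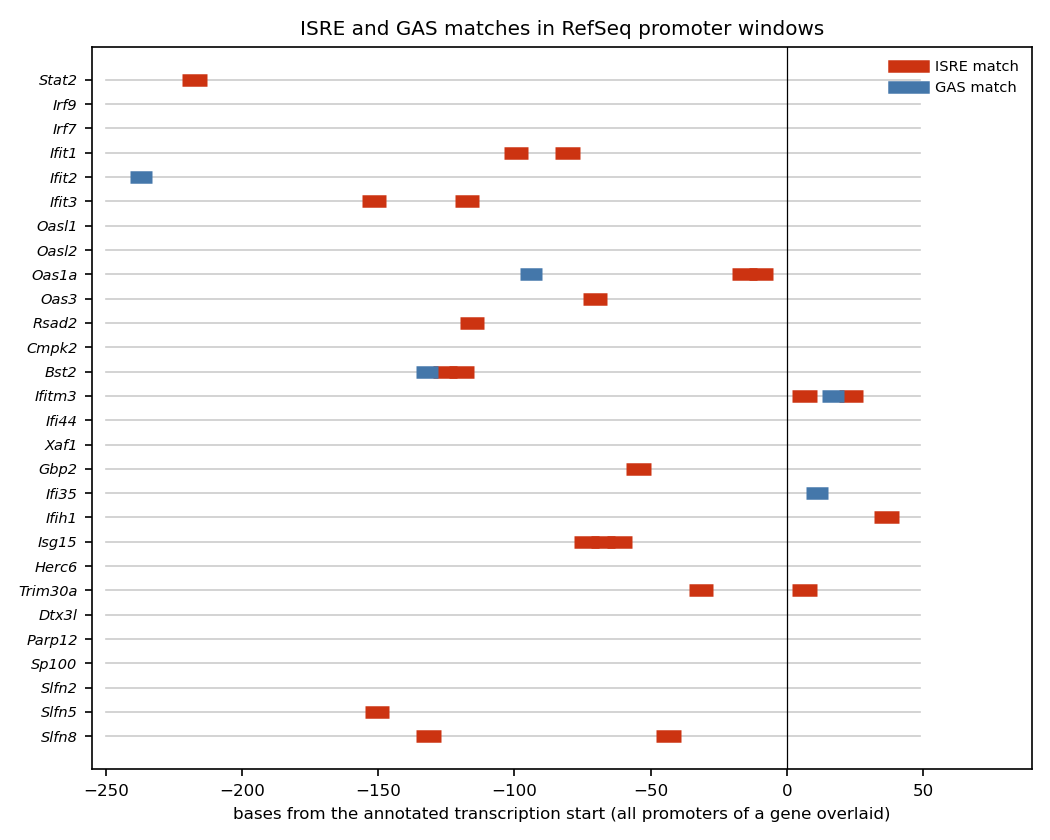
Positions of ISRE (red) and GAS (blue) letter matches in the RefSeq promoter windows of 28 interferon response genes, in bases from the annotated start. ISRE letters occur in 14 of the 28 genes and GAS letters in 5.

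The summed level of the 37 genes was lowest in the 2 groups of plate P209. In WT cortex the 4 mice had 851, 837, 1286 and 1791 CPM, and in WT hippocampus 1173, 1035, 1175 and 1497. In WT cerebellum the 4 mice had 3298, 2582, 4889 and 2366 CPM. The 5xFAD mice had 1600, 3056, 2765 and 1297 in cortex, 1981, 3151 and 1526 in hippocampus, and 2911, 2401 and 2314 in cerebellum. The 8 sums of plate P209 thus lay between 837 and 1791 CPM, and the 14 sums of the other plates between 1297 and 4889, with an overlap. For 32 of the 37 genes, WT cortex and WT hippocampus had the 2 lowest group means. WT cerebellum had the highest mean for 22 genes, 5xFAD cerebellum for 7, 5xFAD hippocampus for 6, and WT cortex and WT hippocampus for 1 each. In these sums, fewer cells with the response and less RNA per cell cannot be told apart; the single-cell values are given further on.

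A single well carried 7.28% to 34.7% of a mouse's module reads, with the largest share in the second WT cerebellum mouse. Without the top well of each mouse, WT cerebellum ranged from 1744 to 4096 CPM, WT hippocampus from 957 to 1252 and WT cortex from 777 to 1373. Wells with at least 3 markers of 1 other cell type at 10 or more reads each numbered 13 in WT cerebellum, 21 in 5xFAD cerebellum and 0 to 2 in each of the other groups. Without them, the second WT cerebellum mouse had 1730 CPM and the second 5xFAD cerebellum mouse 1823.

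**Figure D2:**
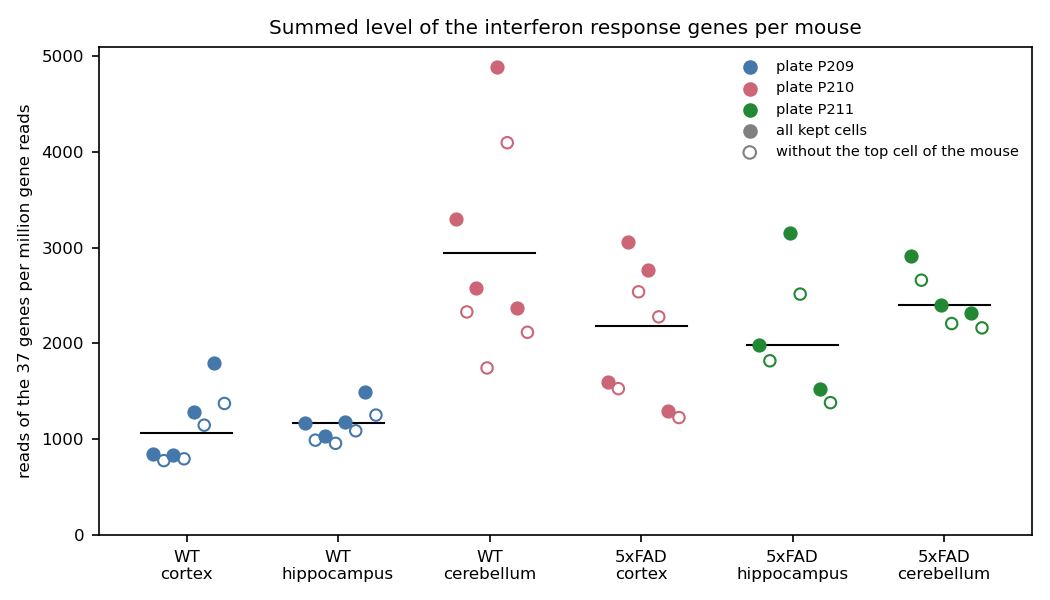
Summed level of the 37 genes in CPM for each mouse, by group and coloured by plate; filled points use all kept cells, open points leave out the well with the most module reads, and lines are group medians. The groups of plate P209 span 837 to 1791 and the WT cerebellum mice 2366 to 4889.

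The transcription factors of the module are Stat2, Irf9 and Irf7. Irf9, the DNA-binding subunit of ISGF3, was read in 35.0% of all 1041 kept cells. Its level was 66.6, 72.1, 153 and 130 CPM in WT cortex and 82.5, 67.8, 105 and 148 in WT hippocampus. The WT cerebellum mice had 267, 199, 206 and 260 CPM, which do not overlap either of these groups. The 5xFAD mice had 180, 221, 210.8 and 135 CPM in cortex, 158, 196 and 160 in hippocampus and 155, 128 and 235 in cerebellum. Irf7 was at 0 CPM in 1 WT cortex mouse and 1 WT hippocampus mouse and reached 118 CPM in another WT cortex mouse, so its spread within a group was wide. Stat2 ranged from 6.22 to 172 CPM over the 22 sums.

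The Ifit and Oas genes encode effectors that bind viral RNA or, for the enzymatically active Oas members, make oligoadenylates that activate RNase L. The 3 Ifit genes lie together on chromosome 19, and the 5 Oas and Oas-like genes lie on chromosome 5. Oasl2 was at 0, 0, 5.43 and 26.9 CPM in WT cortex and at 0, 0, 0 and 39.1 in WT hippocampus. It was at 105, 48.0, 265 and 93.8 CPM in WT cerebellum, and in 5xFAD mice at 33.1, 152, 129 and 69.9 in cortex, 60.6, 274 and 37.3 in hippocampus and 224, 99.0 and 46.0 in cerebellum. Each 5xFAD cortex mouse was above each WT cortex mouse. Oas3 had 0 reads in WT cortex and WT hippocampus, and Oasl1 had 2 reads in WT cortex and 0 in WT hippocampus. Reads of Oas1a, Ifit3 and Oasl1 that also fit close relatives (Oas1g, Ifit3b, Oasl2) may have been split or dropped by the counting, so the levels of these genes are uncertain.

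Among the other antiviral effectors, Bst2 (tetherin, which holds budding virus particles at the membrane) was the most widely read gene of the module, in 52.9% of kept cells. Bst2 had 99.2, 74.1, 44.7 and 58.8 CPM in WT cortex, 47.2, 54.1, 64.0 and 86.7 in WT hippocampus and 115, 114, 215 and 106 in WT cerebellum. In 5xFAD mice Bst2 had 116, 121, 163 and 98.1 CPM in cortex, 95.7, 160 and 114 in hippocampus and 108, 138 and 82.3 in cerebellum. Per kilobase of exon, Bst2 was also the highest gene of the 37, with a mean of 114 CPM per kb over the 22 sums, before Ifi27l2a with 101 and Ifitm3 with 82.2. The lowest was Oas3 with 0.406 CPM per kb.

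Ifi27l2a (chromosome 12, 103442167 to 103443680, minus strand) encodes a small hydrophobic membrane protein induced by interferon. Its level was 6.71, 2.41, 6.24 and 8.30 CPM in WT cortex and 0, 1.20, 3.60 and 8.95 in WT hippocampus. In WT cerebellum it was 28.6, 83.0, 103 and 59.5 CPM. In 5xFAD mice it was 63.3, 77.6, 72.2 and 22.1 CPM in cortex, 81.2, 117 and 66.8 in hippocampus and 65.2, 92.5 and 59.2 in cerebellum. The highest sum of plate P209 had 8.95 CPM and the lowest of the other plates 22.05, so the plates did not overlap. The share of cells with a read of Ifi27l2a was 7.19% in WT cortex, 6.04% in WT hippocampus and 38.9% in WT cerebellum, and 47.0%, 61.7% and 48.2% in 5xFAD cortex, hippocampus and cerebellum. In 12 blank wells it had 1 read in all. It has a close relative, Ifi27l2b, and the sources used here do not say how the counting treated shared reads.

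Ifi35, an interferon-induced leucine zipper protein, was read in 31.0% of kept cells. It had 58.2, 18.9, 46.4 and 50.9 CPM in WT cortex, 52.3, 53.0, 45.9 and 30.9 in WT hippocampus and 114, 84.3, 125 and 78.9 in WT cerebellum. In 5xFAD mice Ifi35 had 55.3, 96.5, 109 and 72.4 CPM in cortex, 60.9, 64.0 and 58.7 in hippocampus and 47.7, 65.9 and 65.7 in cerebellum. Ifi35 in each WT cerebellum mouse was thus above each mouse of the other cerebellum group. Ifitm3, which restricts virus entry at endosomes, was read in 5.39% of WT cortex and 4.95% of WT hippocampus cells. In the other 4 groups the share of cells with Ifitm3 was 25.7% to 37.7%. Mx1, a dynamin-like antiviral GTPase that carries a disabling deletion in C57BL/6 mice, was at 0 to 39.5 CPM on plate P209 and at 2.92 to 242 on the other plates. Rsad2 and Cmpk2, neighbours on chromosome 12, were read in 2.40% and 2.98% of kept cells.

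The sensors of the module are Ifih1, Zbp1 and Ifi204. Ifi204, a p200-family DNA sensor, was at 0 to 14.3 CPM in WT cortex and 0.109 to 36.6 in WT hippocampus. It was at 19.7 to 119 CPM in WT cerebellum, and in 5xFAD mice at 21.3 to 72.1 in cortex, 53.2 to 76.3 in hippocampus and 60.2 to 152 in cerebellum. Ifih1, which binds long double-stranded RNA, did not follow this order. Its level was 48.5 to 62.8 CPM in WT cortex, above 2 of the 3 mice of 5xFAD hippocampus (13.97, 68.7 and 20.8). The p200 genes are related copies, and reads of Ifi204 may be shared with relatives.

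Of the ubiquitin-like modifier and ligases, Isg15, the modifier itself, was at 7.74 CPM or less in all sums but the third WT cerebellum mouse, which had 38.05. Trim30a, a ubiquitin ligase family member, was read in 40.6% of cells. It had 75.8, 90.9, 112 and 128 CPM in WT cortex, 103, 133, 122 and 159 in WT hippocampus and 97.8, 171, 209.1 and 99.6 in WT cerebellum. In 5xFAD mice Trim30a had 91.4, 299, 208.5 and 118 CPM in cortex, 163, 249 and 96.0 in hippocampus and 159, 197 and 252 in cerebellum. Its groups overlapped, apart from 5xFAD cerebellum against WT cortex. Dtx3l, which works with Parp9, was among the genes with no clear order between the groups, at 29.0 to 144 CPM on plate P209 and 4.72 to 138 on the others. Dtx3l and Parp9 overlap on opposite strands, and the sources used here do not say whether the counting used strand, so their reads may be mixed. The Parp genes and Sp100 make up the ADP-ribosyltransferase and nuclear body members. Parp14 was read in 30.0% of kept cells, with 95.4, 16.1, 42.8 and 133 CPM in WT cortex, 30.9, 28.3, 51.5 and 129 in WT hippocampus and 130, 70.9, 227 and 83.4 in WT cerebellum. In 5xFAD mice Parp14 had 58.9, 154, 97.8 and 87.7 CPM in cortex, 78.9, 99.2 and 67.2 in hippocampus and 71.9, 81.9 and 126 in cerebellum. All 6 groups of Parp14 overlapped.

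Parp12, an ADP-ribosyltransferase of the same family, was read in 27.7% of kept cells. It had 22.9, 98.5, 81.3 and 126 CPM in WT cortex, 121, 85.5, 110 and 60.9 in WT hippocampus and 106, 77.6, 153 and 133 in WT cerebellum. In 5xFAD mice Parp12 had 104, 107, 121 and 112 CPM in cortex, 321, 77.1 and 93.1 in hippocampus and 68.4, 54.2 and 92.6 in cerebellum. The highest value was that of 1 5xFAD hippocampus mouse. Sp100, a nuclear body protein, had its highest group mean in 5xFAD cerebellum, at 248, 174 and 102 CPM against 32.3, 97.9, 69.0 and 40.9 in WT cerebellum.

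The schlafens are interferon-induced regulators of growth and translation. Slfn5 had no read in the 182 kept cells of WT hippocampus, which allows a share of up to 1.65% of cells with a read. This bound covers counting error over cells pooled from 4 mice and does not limit the cells that express the gene. It was at 28.4, 0, 0.272 and 11.2 CPM in WT cortex, 46.2, 33.9, 3.05 and 15.0 in WT cerebellum, and in 5xFAD mice at 2.22, 37.9, 12.2 and 16.5 in cortex, 25.9, 58.7 and 14.9 in hippocampus and 44.3, 75.4 and 20.4 in cerebellum. Slfn2 was at 25.5, 25.02, 35.8 and 44.1 CPM in WT cortex and 56.5, 31.7, 25.9 and 58.9 in WT hippocampus, below the 150, 94.4, 208 and 132 of WT cerebellum. Those groups did not overlap. Slfn8 was read in 27.1% of kept cells, and its lowest mean was in WT cortex, at 64.7, 90.5, 89.2 and 42.8 CPM. Slfn8 had 162, 116, 164 and 133 CPM in WT hippocampus and 157, 78.8, 149 and 92.1 in WT cerebellum. In 5xFAD mice Slfn8 had 132, 148, 213 and 52.2 CPM in cortex, 122, 125 and 162 in hippocampus and 108, 153 and 126 in cerebellum. Unlike most of the module, Slfn8 was higher in each WT hippocampus mouse than in each WT cortex mouse. Slfn2, Slfn5 and Slfn8 are paralogs in 1 cluster and may share reads with its other members.

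**Figure D3:**
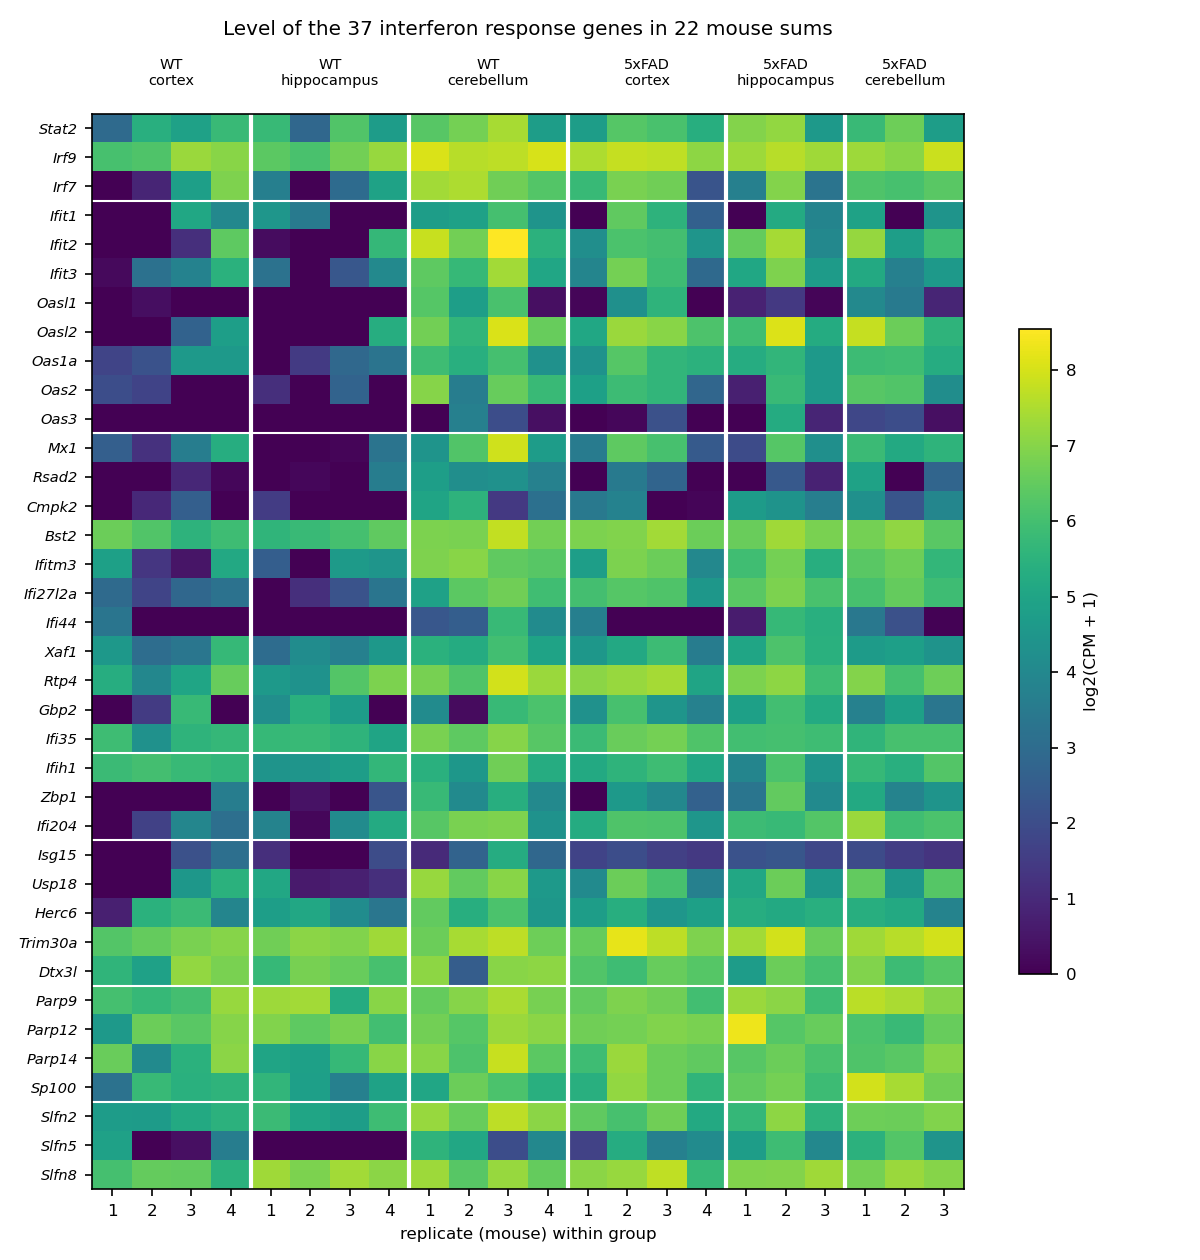
Level of each of the 37 genes, as log2(CPM + 1), in the 22 sums of a mouse and region, with genes ordered by role and white lines between groups and roles. Dark squares (0 CPM) are most frequent in WT cortex and WT hippocampus, where Oasl1 and Oas3 are at or near 0; Bst2, Irf9, Trim30a and the Parp genes have reads in every sum.

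In cortex, most of the 37 genes had a higher level in 5xFAD than in WT mice, among them all 8 Ifit and Oas genes and Ifi27l2a, but none passed the test across all genes. That is, 0 of the 37 genes passed the threshold between 5xFAD and WT mice by edgeR's quasi-likelihood test with Benjamini-Hochberg adjustment over all genes tested (adjusted p under 0.05), where 0.294% of all genes did. Before adjustment, at p under 0.05, 15 genes were higher and 0 lower in 5xFAD, against 4.5% of all genes higher and 7.25% lower, and DESeq2 with adjusted p under 0.05 gave 3 of the 37 and 473 of all genes. Of the 37 differences 34 were positive, against 46.1% of all genes, with a median log2 fold change of 1.11 against -0.09 for all genes tested. The genes below 0 were Ifih1, Isg15 and Dtx3l. In 4 genes (Oasl2, Oas2, Ifi27l2a and Ifi204) each 5xFAD mouse was above each WT mouse, against 3.06% of all genes, and in 0 it was below (2.66%). Ifi27l2a had a log2 difference of 3.31 ± 0.79 (SE) with an adjusted p of 0.0908. The 8 Ifit and Oas genes had a median of 2.70 and the 5 ubiquitin-like modifier and ligase genes one of 0.02.

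In hippocampus, Ifi27l2a and Slfn5 rose in 5xFAD mice, so 2 of the 37 genes passed the threshold as higher, where 0.76% of all genes did, and 0 as lower (0.253%). Ifi27l2a had a log2 fold change of 4.66 ± 0.86 (SE, adjusted p = 0.00476), and each of 3 5xFAD mice was above each of 4 WT mice. Slfn5 had 1555 reads in 5xFAD hippocampus against 0 in WT, at least 448-fold higher (3 reads over the group taken as the floor, adjusted p = 0.00699). Its reads came from 13 of 154 kept 5xFAD hippocampus cells (8.44%). The bound covers counting of reads and not how few cells held them. Both were past the threshold without any 1 of the 7 mice. Ifi27l2a was not when only these 2 groups entered the fit (adjusted p = 0.122), and Slfn5 was not with limma on the mean over cells of log2(CPM + 1) (adjusted p = 0.0599).

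At an unadjusted p under 0.05, 17 of the 37 genes were higher and 0 lower in 5xFAD hippocampus, against 9.22% of all genes higher and 3.88% lower. The difference was positive in 33 genes (53.9% of all genes) and negative in Rsad2, Dtx3l, Parp9 and Slfn8, with a median log2 value of 1.65 against 0.10 for all genes. In 16 genes each 5xFAD mouse was above each WT mouse, against 7.21% of all genes, and in 0 below (3.8%). These included Irf9, Ifit3, Oas1a, Bst2, Ifitm3, Xaf1, Ifi35, Zbp1, Ifi204, Herc6 and Sp100. Ifi44, with 1409 reads against 0, was at least 406-fold higher, but with an adjusted p of 0.174 it did not pass. Its reads came from 6 of 154 kept 5xFAD hippocampus cells, and in 1 of the 3 mice it had 0.556 CPM.

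In cerebellum the sign was mostly the other way. None of the 37 genes passed (0.0461% of all genes did), the difference was negative for 28 and positive for 9 (47.9% of all genes positive), and the median log2 difference was -0.61 against -0.01 for all genes tested. At an unadjusted p under 0.05, 1 gene was higher (Sp100, 1.54 ± 0.56 SE, adjusted p = 0.552) and 1 lower (Ifi35, -0.75 ± 0.36, adjusted p = 0.554), against 4.59% and 4.33% of all genes, and DESeq2 gave 0 past the threshold. Sp100 was higher in each 5xFAD mouse than in each WT mouse (4.6% of all genes), and Xaf1 and Ifi35 were lower (2.62%). Ifi27l2a, at a log2 difference of 0.07 ± 0.78 (SE, adjusted p = 1), was among the 9 above 0.

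**Figure D4:**
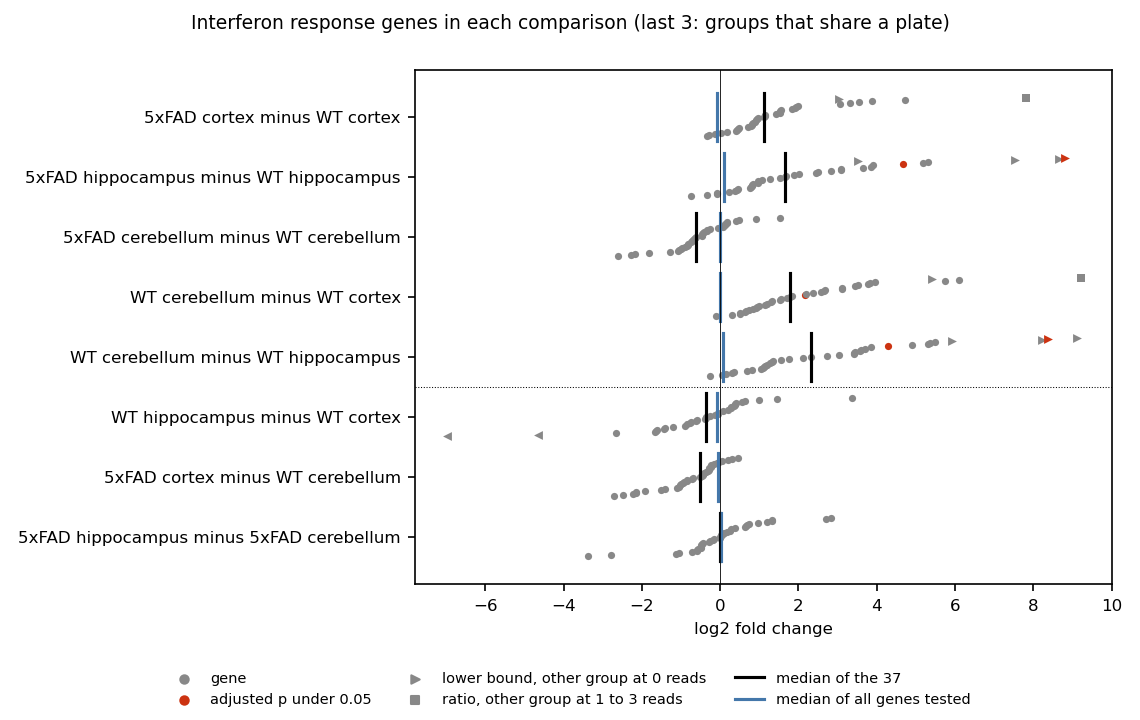
Log2 fold change of the 37 genes in 8 comparisons. Red marks an adjusted p under 0.05 by edgeR's test, and triangles are lower bounds where the other group had 0 reads. Squares are read ratios, and black and blue lines are the medians of the 37 and of all genes tested. Oasl1 and Oas3, with 0 to 2 reads a group, are not drawn for WT hippocampus less WT cortex. In the last 3 comparisons, between groups that share a plate, the median of the 37 lies at -0.36, -0.51 and 0.00, against 1.11 and 1.65 for 5xFAD less WT in cortex and hippocampus.

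The 5xFAD difference in hippocampus was set against that in cerebellum by an interaction term. It was past the threshold for 0 of the 37 genes and for 0.3% of all genes, and it was above 0 for 31 of the 37 and for 53.9% of all genes. Before adjustment, at p under 0.05, it was positive for 16 of the 37 and negative for 0, against 7.54% and 3.86% of all genes, and its median was 2.12 on the log2 scale against 0.14 for all genes; DESeq2 gave 3 of the 37 and 531 of all genes. Slfn5 had an adjusted p of 0.0992 and Ifi27l2a one of 0.114, with an interaction of 4.59 ± 1.16 (SE) for Ifi27l2a. Both 5xFAD groups of this term lie on plate P211, WT hippocampus on P209 and WT cerebellum on P210, so the term cannot be told apart from a difference between P209 and P210.

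Groups that share a plate were compared next. WT hippocampus against WT cortex, both on plate P209, had 0 of 37 genes and 0% of all genes past the threshold. Of the 37 differences 23 were negative and 13 positive, against 46.2% of all genes positive, and Oas3 had 0 reads in both groups. The median was -0.36 on the log2 scale against -0.07 for all genes. Slfn5 had 0 reads against 267 and was at least 126-fold lower in WT hippocampus, with an adjusted p of 0.474. The 267 reads came from 4 of 167 kept WT cortex cells. The 2 highest of the 4 WT cortex mice had 28.4 and 11.2 CPM and the others 0 and 0.272. By DESeq2 2 of the 37 passed, both lower in WT hippocampus, and 301 of all genes. At an unadjusted p under 0.05, 1 gene was higher (Slfn8) and 2 were lower (Slfn5 and Ifi44) in WT hippocampus, against 2.77% and 7.75% of all genes. Slfn8 was the 1 gene higher in each WT hippocampus mouse (1.24% of all genes), and 0 were lower in each (1.86%).

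5xFAD cortex against WT cerebellum, both on plate P210, had 0 of 37 genes past the threshold where 0.259% of all genes were. The difference was positive for 4 of the 37, against 45.6% of all genes, with a median of -0.51 on the log2 scale against -0.06 for all genes. At an unadjusted p under 0.05, 0 were higher and 1 lower (Slfn2), against 4.85% and 5.92% of all genes. In 0 genes was each 5xFAD cortex mouse higher (2.58%) and in 1, Rsad2, lower (1.84%). DESeq2 also gave 0 of 37. 5xFAD hippocampus against 5xFAD cerebellum, both on plate P211, again had 0 of 37 past the threshold, against 0.219% of all genes, with 19 positive and 18 negative differences (51.2% of all genes positive) and a median of 0.00. At an unadjusted p under 0.05, 1 gene was higher (Parp12) and 0 lower, against 4.87% and 2.93% of all genes, and DESeq2 gave 0. Xaf1 was higher in each 5xFAD hippocampus mouse (7.3% of all genes) and 0 genes were lower in each (6.26%). Genotype and region differ together on plate P210, so neither can be read from that comparison alone.

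Within WT mice, cerebellum was compared with cortex and hippocampus after the levels above had been seen; both comparisons run between plates P210 and P209. All 7 border macrophage markers tested had a higher level in WT cerebellum, with a median log2 difference of 3.57 against cortex and 2.90 against hippocampus, and 0 of the 7 passed the threshold. Of 11 microglia markers, 5 fell against cortex and 6 against hippocampus. With wells of other cell types left out, 1 of the 37 genes passed against cortex (Slfn2) and 2 against hippocampus (Ifi27l2a and Slfn5), as with them. Against WT cortex, Slfn2 rose in WT cerebellum by a log2 fold change of 2.16 ± 0.41 (SE, adjusted p = 0.015), the 1 of 37 genes past the threshold as higher where 0.15% of all genes were, with 0 lower (0.127%). Its groups did not overlap. The call was lost without the third WT cerebellum mouse (adjusted p = 0.0591), without the first or second WT cortex mouse (0.0634 and 0.0632), with limma-voom (0.169), with only these groups in the fit (0.0626) and with plate columns 1 and 2 left out (0.207). Of the 37 differences 36 were positive, against 49.5% of all genes, with a median of 1.78 on the log2 scale against -0.01 for all genes. At p under 0.05 before adjustment, 16 genes were higher and 0 lower, against 5.22% and 6.77% of all genes. In 12 genes each WT cerebellum mouse was above each WT cortex mouse (2.19% of all genes) and in 0 below (2.45%).

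Against WT hippocampus, Ifi27l2a (log2 fold change 4.30 ± 0.83 SE, adjusted p = 0.0173) and Slfn5 (855 reads against 0, at least 332-fold, adjusted p = 0.0191) rose in WT cerebellum, 2 of 37 genes where 0.19% of all genes were higher, with 0 lower (0.184%). The Slfn5 reads came from 14 of 162 kept WT cerebellum cells. Without the second or the third WT hippocampus mouse the adjusted p of Ifi27l2a was 0.0797 and 0.0514. Without each WT hippocampus mouse in turn, the adjusted p of Slfn5 was 0.0678, 0.0714, 0.0516 and 0.0652. With only these groups in the fit it was 0.295 for Ifi27l2a and 0.103 for Slfn5, and with plate columns 1 and 2 left out 0.0561 and 0.0689. It was 0.0524 for Ifi27l2a with limma-voom and 0.0515 for Slfn5 with limma on cell means. The difference was positive for 36 of the 37 (53.3% of all genes), with a median of 2.31 on the log2 scale against 0.08 for all genes. At p under 0.05 before adjustment, 23 genes were higher and 0 lower, against 8.46% and 5.25% of all genes. In 18 genes each WT cerebellum mouse was above each WT hippocampus mouse, against 2.49% of all genes, and in 0 below (2.47%). These WT comparisons share their WT cerebellum mice with each other and their WT cortex or hippocampus mice with the 5xFAD comparisons.

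To set cells side by side at equal depth, each was thinned to 50000 gene reads, which left 941 cells and dropped 5 to 34 shallower cells a group. The median number of the 37 genes with a read was 3 in WT cortex, 3 in WT hippocampus and 5 in WT cerebellum, and 6, 6 and 5 in 5xFAD cortex, hippocampus and cerebellum. The mean per cell lay between 2.96 and 4.66 in the 8 sums of plate P209 and between 5.79 and 9.85 in the 14 sums of the other plates, without overlap. Before thinning, median depth per group was 198492 to 343580 reads and was lowest in WT cortex.

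Cells with many module genes occurred in every group. A read of at least 10 of the 37 genes was found in 4.51% of thinned cells of WT cortex, 3.39% of WT hippocampus and 24.1% of WT cerebellum. In 5xFAD mice the share was 25% in cortex, 23.7% in hippocampus and 20.3% in cerebellum. Mice ranged from 0% to 10.8% on plate P209 and from 12.7% to 38.2% on the others. The number 10 is a point on a range and marks no cell type: 5 to 26 cells a group had 8 or 9 genes and 0 to 12 had 10 or 11. At least 15 genes were read in 2, 3 and 19 cells of WT cortex, hippocampus and cerebellum and in 14, 13 and 19 cells of the 5xFAD groups. The highest single cells had 22, 16 and 35 genes in the WT groups and 33, 28 and 30 in the 5xFAD groups.

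**Figure D5:**
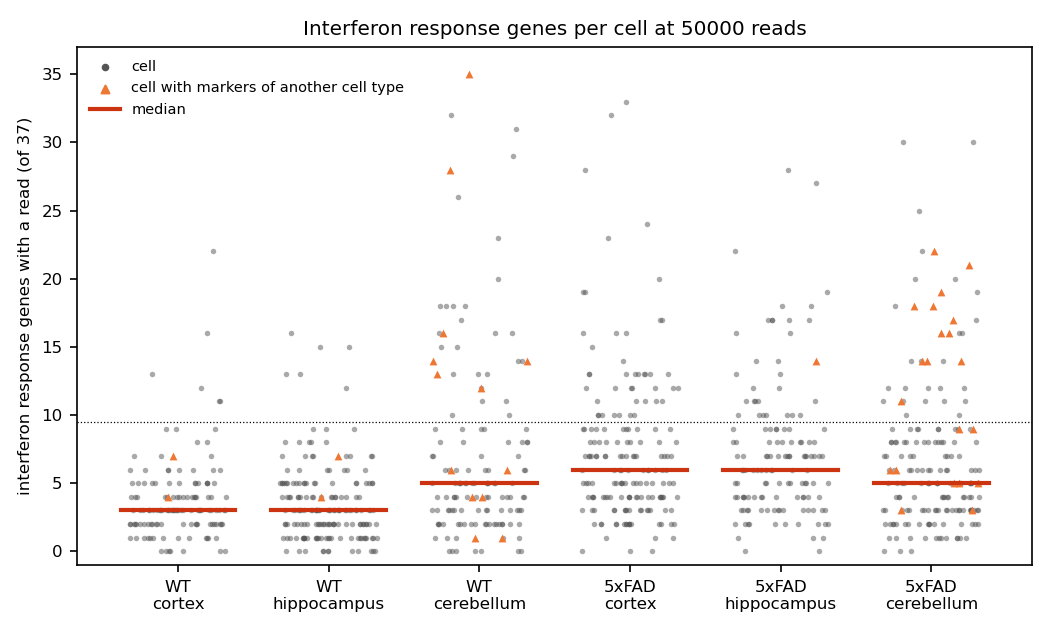
Number of the 37 genes with a read in each cell after thinning to 50000 reads, by group, with group medians in red and wells with markers of another cell type as triangles; the dotted line separates cells with at least 10 genes. Medians are 3 in WT cortex and hippocampus and 5 or 6 in the other groups, and cells with 20 or more genes are present in 5 of the 6 groups.

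Wells with markers of other cell types lay among the cells with many module genes. Of cells with at least 10 genes, 7 of 33 in WT cerebellum and 12 of 38 in 5xFAD cerebellum were such wells, against 0 or 1 in each other group. The 29 wells with border macrophage markers had a median of 14 module genes and the 5 with monocyte and neutrophil markers one of 5. Cerebellar wells without such markers had a median of 5 in both genotypes, and up to 32 in WT and 30 in 5xFAD. With these wells left out, 0 of the 37 genes passed between 5xFAD and WT mice in cortex and in cerebellum and 2 of the 37 in hippocampus, as with them.

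Cells with a read of one of the rarer members held reads of more of the other members. In thinned cells with a read of Oasl1 the median number of other module genes was 22, against 4 in cells without. The values were 21 against 4 for Rsad2, 19 against 4 for Ifit1, 16 against 4 for Isg15 and 16.5 against 4 for Slfn5. For Bst2 and Dtx3l, which were read in many more cells, they were 5 against 3 and 5 against 4. Median genes detected, counted at full depth before thinning, differed less between these cells. They were 2609 with and 2621 without Oasl1 and 2884 with and 2618 without Slfn5. These values pool cells of all groups and mice and are a description.

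Genes that make and pass on the interferon signal were described from lists of the pathway. Of 9 interferon ligand genes 0 had enough reads to be tested: Ifnb1 had 0 reads in all 6 groups, and Ifng had 38 in 5xFAD hippocampus, 15 in WT hippocampus and 0 in the others. Ifnar1, Ifnar2, Jak1 and Tyk2 had adjusted p-values of 0.529 or more between 5xFAD and WT mice in cortex, hippocampus and cerebellum. In those comparisons 0 of 8 signal transducers and Irf factors, 0 of 13 nucleic acid sensors and their adaptors and 0 of 7 genes that restrain the response passed the threshold of edgeR's test. Before adjustment, at p under 0.05, 1 transducer and 1 sensor were higher in 5xFAD cortex and in 5xFAD hippocampus, and 2 restraining genes in 5xFAD cortex, where 4.5% of all genes were higher in cortex and 9.22% in hippocampus. Lower were 1 sensor in 5xFAD hippocampus (3.88% of all genes) and 1 transducer in 5xFAD cerebellum (4.33%).

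Of 7 receptors and kinases tested, 1 passed as lower in 5xFAD hippocampus, where 0.253% of all genes did. This gene, Ifngr1, encodes the ligand-binding chain of the receptor for interferon gamma. It was at 1842, 2042, 1865 and 1810 CPM in WT and 1031, 1180 and 1274 in 5xFAD mice, a log2 difference of -0.70 (adjusted p = 0.0129). The call was lost without the first 5xFAD hippocampus mouse (0.13), without the second (0.0786) and with plate columns 1 and 2 left out (0.089). In cortex the Ifngr1 difference was -0.17 (adjusted p = 0.697) and in cerebellum 0.31 (0.552).

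A list of 62 further interferon-stimulated genes, 57 of them tested, held 1 gene that rose in 5xFAD cortex and 3 that rose in 5xFAD hippocampus, with 0 in cerebellum. Of the 17358 genes tested, 42, 132 and 5 were past the threshold as higher in these comparisons. Lgals3bp, a secreted galectin-binding glycoprotein, rose in both. It was at 234, 311, 328 and 612 CPM in WT cortex and 1332, 1704, 1654 and 944 in 5xFAD cortex (log2 fold change 1.92, adjusted p = 0.00346), and at 330, 309, 196 and 455 in WT hippocampus and 1831, 2004 and 2050 in 5xFAD hippocampus (2.60, 7.61e-05). The cortex call was lost with limma-voom (0.137); in hippocampus the largest adjusted p over 19 alternatives was 0.0189. Lgals3bp in cerebellum was at 527, 801, 1092 and 549 CPM in WT and 1335, 714 and 658 in 5xFAD mice (0.28, adjusted p = 0.913).

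Ly6e and Ms4a4c also rose in 5xFAD hippocampus. Ly6e, a surface protein of the Ly6 family, was at 1670, 1581, 1812 and 2228 CPM in WT and 2785, 3312 and 2648 in 5xFAD mice. It had a log2 fold change of 0.68 (adjusted p = 0.0307). Ms4a4c, a membrane protein of the Ms4a family, had 381 reads against 0, at least 110-fold (0.0293). Without 1 mouse of the comparison Ly6e was past the threshold in 2 of 7 fits and Ms4a4c in 1 of 7. Over all alternatives the call was lost in 9 of 19 for Ly6e and in 9 of 17 for Ms4a4c. With limma on cell means Ly6e had a log2 difference of 0.23 (adjusted p = 0.849) and Ms4a4c an adjusted p of 0.359. With plate columns 1 and 2 left out the values were 0.0766 and 0.0652, and with only the groups compared Ly6e had 0.051. By edgeR's test Ms4a4c also rose in WT cerebellum against WT hippocampus, with 808 reads against 0, at least 314-fold (adjusted p = 0.0271). That call was lost in 10 of 19 alternatives. In WT cortex Ms4a4c had 185 reads, so WT hippocampus, at 0, was low against these WT groups as well. Cxcl10, a chemokine gene induced by interferons and singled out after its values were seen, had 0 reads in WT cortex and WT hippocampus. It had 5892 reads in WT cerebellum, and 7408, 8872 and 508 in 5xFAD cortex, hippocampus and cerebellum. Of the 3 5xFAD hippocampus mice, 1 had 526 CPM and the others 0, so its bound of at least 2554-fold rests on 1 mouse, and its adjusted p was 0.281. Among 7 tested genes that restrain the response, Adar, which edits double-stranded RNA, rose in WT cerebellum against WT cortex, from 20.7, 19.7, 41.5 and 26.1 CPM to 91.9, 70.7, 139 and 218 (log2 fold change 2.27, adjusted p = 0.014). This call was lost in 10 of 20 alternatives. The further genes had a median log2 difference of 0.70 in cortex, 0.71 in hippocampus and -0.09 in cerebellum.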

How the data were processed

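Each well was sequenced with Smart-seq2, and the authors deposited raw read counts per gene and well. Reads were aligned with STAR 2.5.2b to GRCm38 and counted with featureCounts 1.5.1, per the submitters' processing notes; the annotation and strand setting are not stated there. For wells of plate columns 1 and 2, whose counts came only within summed columns, 96 columns were recovered by subtraction (0 negatives in 4673184 values). Wells were kept with at least 500 genes, 10000 gene reads and at most 20% mitochondrial reads, and 99 were dropped; 12 blanks held 3109 to 8422 reads each. The 92 spike-in rows stayed out of totals.

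Counts were summed per mouse and region. edgeR 4.0.16 (R 4.3.3; TMM, filterByExpr, quasi-likelihood test, 1 term per group, Benjamini-Hochberg over 17358 genes, threshold 0.05) gave folds and p-values; an SE is the fold over the root of F. limma 3.58.1, DESeq2 1.42.0, other filters, thinning and leaving out mice were alternatives. The edgeR fit was tested on simulated data. Over the comparisons simulated, it recovered 1.5% to 9.0% of changes of log2 size 1 and 25.4% to 50.7% of size 2. Of size 4 it recovered 62.1% to 83.3%. A gene not past the threshold is therefore not shown to be unchanged. A group at 0 was set to 3 reads. Regions of a genotype share mice, which the fit does not model, and that a replicate number marks 1 mouse is not stated: p-values measure the spread between these sums. Members and lists were chosen with earlier results of these data known. Given in full were members past the threshold and the 8 read in the largest share of cells; Slfn2, Adar and the comparisons of WT cerebellum with the other WT regions were chosen after their values were seen, and of other lists up to 4 genes past the threshold and a few fixed genes are named, and 1 item is not reported here.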

Additional observations from a re-analysis of the deposited data

Results flagged for a closer look

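In WT cerebellum, Bst2 in the third mouse was at 7.75 (log2 CPM), set apart from the other 3 mice by a gap of 0.889 of the group's range, above Dixon's 95% critical value for 4 samples. In 5xFAD cortex, Ifi27l2a in the fourth mouse was at 4.47 (log2 CPM), below the other 3 mice by a gap of 0.838 of the range. In all 43 groups of values were examined, and chance flags about 1 in 20.

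The interaction term of edgeR's quasi-likelihood test sets the 5xFAD difference in hippocampus against that in cerebellum. It was past the threshold for 2 of 103 listed pathway genes in the count table, not all of which were tested. Of all genes tested, 0.3% passed. Because WT hippocampus lay on plate P209 and WT cerebellum on P210, this term cannot be told apart from a difference between those plates. Lgals3bp had an interaction of 2.32 on the log2 scale (adjusted p = 0.029), which was past the threshold in 15 of 26 alternatives. Ifngr1 had one of -1.01 (adjusted p = 0.029), past the threshold in 16 of 26. The largest adjusted p over the alternatives was 0.151 for either gene, in both cases without the second 5xFAD cerebellum mouse.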

How the results depend on the processing

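Among the single members and pathway genes followed through the alternatives, none past the threshold in the main fit or the alternative reversed its direction. The other genes past the threshold were only counted, and their direction was not compared. A change of sign in a gene past the threshold in neither fit was not counted as a reversal. Over single genes, shares of cells and summed levels, 8240 values were taken as the same, 204 newly passed the threshold and 87 lost it. For a single gene, the same means that its call did not change, and its log2 fold change could still move. That of Ifi27l2a for 5xFAD less WT in hippocampus ran from 3.43 to 6.10 over 19 alternatives. Shares and summed levels have no threshold. They were taken as the same within the SD between the mice of a group, and 36 moved further. Members past the threshold for 5xFAD less WT in cortex (0) numbered 6 without the filter on low counts, 1 with a stricter filter, 3 with DESeq2, 11 with limma on cell means and 1 with thinned cells. In hippocampus (2) they numbered 15, 1, 5 and 7 in the first 4 of these, 5 with limma-voom and 1 with only the groups compared. For WT hippocampus less WT cortex (0) there were 3 without the filter and 2 with DESeq2, and for 5xFAD cortex less WT cerebellum (0) 1 without the filter. For WT cerebellum less WT cortex (1) there were 13 without the filter, 3 with the stricter one, 8 with DESeq2, 0 with limma-voom, 8 with cell means, 0 with only the groups compared, 4 with thinned cells and 0 without plate columns 1 and 2. For WT cerebellum less WT hippocampus (2) there were 18 without the filter, 15 with DESeq2, 1 with limma-voom, 11 with cell means, and 0 with only the groups compared or without plate columns 1 and 2. For the interaction (0) there were 13 without the filter, 1 with the stricter one, 3 with DESeq2, 2 with limma-voom, 2 with cell means, 1 with only the groups compared and 1 with thinned cells. Cerebellum and 5xFAD hippocampus less 5xFAD cerebellum stayed at 0.

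Genes past the threshold in cortex (51) numbered 190 without the filter, 473 with DESeq2, 476 with cell means and 25 with only the groups compared. In hippocampus (176) they numbered 327 without the filter, 748 with DESeq2, 370 with limma-voom and 499 with cell means. In cerebellum (8) they numbered 98 without the filter, 13 with the stricter one, 324 with DESeq2, 66 with limma-voom, 0 with only the groups compared, 3 without plate columns 1 and 2 and 13 without wells of other cell types. For 5xFAD hippocampus less 5xFAD cerebellum (38) they were 107, 62, 349, 276 and 5 in the first 5 of these. For WT hippocampus less WT cortex (0) they were 43 without the filter, 301 with DESeq2, 5 with limma-voom and 22 with cell means. For 5xFAD cortex less WT cerebellum (45) they were 154 without the filter, 432 with DESeq2, 823 with cell means, 14 with only the groups compared and 28 without plate columns 1 and 2. For WT cerebellum less WT cortex (48) they were 215 without the filter, 78 with the stricter one, 549 with DESeq2, 146 with cell means, 13 with only the groups compared and 89 with thinned cells. For WT cerebellum less WT hippocampus (65) they were 233 without the filter, 710 with DESeq2, 311 with cell means, 13 with only the groups compared and 40 without plate columns 1 and 2. For the interaction (52) they were 186 without the filter, 96 with the stricter one, 531 with DESeq2, 140 with limma-voom, 99 with cell means and 28 with only the groups compared. The cause of these shifts was not tested.

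Leaving out 1 mouse at a time, genes past the threshold ranged from 29 to 46 in cortex, 113 to 140 in hippocampus and 1 to 10 in cerebellum. They ranged from 7 to 38 for 5xFAD hippocampus less 5xFAD cerebellum, 0 to 2 for WT hippocampus less WT cortex, 22 to 40 for 5xFAD cortex less WT cerebellum, 32 to 54 and 39 to 76 for WT cerebellum less WT cortex and less WT hippocampus, and 18 to 64 for the interaction. Members ranged from 2 to 5 in hippocampus (5 without the fourth WT mouse), 0 to 1 and 0 to 5 for WT cerebellum less WT cortex and less WT hippocampus, and 0 to 3 for the interaction, and stayed at 0 in the other comparisons.

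Whether a replicate number pairs sums was checked on 6591 genes: over 21 pairs of same-numbered sums, the correlation of deviations from the group mean was -0.04 to 0.03, and 0 pairs exceeded 0.1. With the replicate block, members past the threshold were 0 in hippocampus (Ifi27l2a adjusted p = 0.124, Slfn5 0.0795) and 5 for WT cerebellum less WT hippocampus. Calls of pathway genes lost with the block were Lgals3bp in cortex (adjusted p = 0.223) and Ifngr1 (0.0799), Ly6e (0.58) and Ms4a4c (0.477) in hippocampus. Also lost were Adar for WT cerebellum less WT cortex (0.0788), Ms4a4c for WT cerebellum less WT hippocampus (0.0584) and Ifngr1 in the interaction (0.0542). With the block, genes past it numbered 12 in cortex, 60 in hippocampus, 1 in cerebellum, 5 for WT hippocampus less WT cortex, 7 for 5xFAD cortex less WT cerebellum and 26 for WT cerebellum less WT cortex.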

Other observations

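Cst7 encodes cystatin F, a protease inhibitor read in microglia near amyloid plaques. In the 10 sets of cells of 1 5xFAD mouse and region, thinned cells with and without a Cst7 read were set side by side as a description, with no test. The mean number of interferon response genes per cell was higher with Cst7 in 7 of 10 sets (median over sets 8.22 against 6.48). It was lower with Cst7 in the first and second 5xFAD hippocampus mice (6.69 against 7.24 and 6.88 against 9.83). The third 5xFAD cerebellum mouse also had a lower mean with Cst7 (4.71 against 6.52). Of single genes, Bst2, Ifi27l2a and Ifitm3 were chosen without a stated rule, and the other members and all other genes were not compared. Bst2 was read in a larger share of cells with Cst7 in 9 of 10 sets (78.7% against 50.1%) and Ifi27l2a in 9 of 10 (67.7% against 39.4%). Ifitm3 was read in a larger share in 8 of 10 sets (40.5% against 22.3%). In 1 set, the second 5xFAD cerebellum mouse, Cst7 was read in 1 cell.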
